A study of Mus musculus with 6 samples.

Results

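The aminoacyl tRNA synthetases are the enzymes that load each amino acid onto its transfer RNA. The genes described here were 38 listed by name: 20 cytosolic synthetases, 2 scaffold proteins of the cytosolic synthetase complex and 16 mitochondrial synthetases. They were looked up in the platform's probe annotation, and where a gene had more than 1 probe set, the brightest on average was read. Of the 38, 36 were measured (18 cytosolic, 2 scaffold and 16 mitochondrial), among 19938 genes with a probe set of their own. Aars is read only by a probe set that it shares with another gene, and no listed probe set names Dars, so neither was analysed here. Mars was matched by its gene identifier, because the platform lists it as Mars1.

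RNA came from spleen CD8+ T cells of female C57BL/6 mice carrying the Pmel-1 T cell receptor transgene, which recognises the melanoma antigen gp100 and is the genotype of all 3 groups. IL-12 primed cells and IL-2 primed cells were given gp100 for 4 days and were cultured with IL-12 or with IL-2 for 6 days, and naive cells were sorted fresh as CD8+ Thy1.1+ and received neither antigen nor cytokine. No sort of the primed cells is given, and the labels do not say whether arrays came from separate mice, cultures or pools, so p-values may measure technical spread only. Each group had 2 Affymetrix arrays, and all values are log2 RMA values as the authors deposited them. Differences and their standard errors come from a limma fit to all 6 arrays, with p-values adjusted by the Benjamini-Hochberg method over 11147 tested genes. A gene was called at an adjusted p under 0.05. All 36 measured members were bright enough to be tested.

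A synthetase recognises 1 amino acid and the tRNAs that carry its anticodons, and the charged tRNAs feed the ribosome. Cytosol and mitochondria mostly use separate enzymes from separate nuclear genes, the mitochondrial gene carrying the suffix 2. Gars and Kars each encode the enzyme of both compartments. Several cytosolic synthetases sit together in the multi-synthetase complex, held by Aimp1, Aimp2 and Eef1e1. Activated T cells make large amounts of protein, and uncharged tRNA is the signal by which the kinase GCN2, encoded by Eif2ak4, starts the amino acid response. That response raises the transcription factor ATF4, which is known to act on many cytosolic synthetase genes in mouse cells through C/EBP-ATF response elements.

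With IL-12 rather than IL-2 priming, most cytosolic synthetase genes rose and no mitochondrial one was called. Of 18 cytosolic genes 13 rose and none fell, with a median log2 difference of 0.49, against a median of 0.02 over all tested genes. Across all 11147 genes 20.8% were called in this comparison, 9.82% of all genes being higher in IL-12 cells. Of 16 mitochondrial genes none was called in either direction (0 of 16 by limma), and their median was 0.16. The 3 at an unadjusted limma p under 0.05 were all higher with IL-12. Differences lay above 0 for 13 of the 16, as for 5868 of all 11147 genes. The compartments were not tested against each other. On all 18 cytosolic genes the IL-12 arrays lay outside the IL-2 arrays, as did those of 9 of the 16 mitochondrial genes and 69.5% of all tested genes. B cell markers moved the same way in this comparison, 7 of 9 rising with a median of 0.81, and their part in the synthetase differences was not tested. Ebf1 and Blk, among the 7, were bright enough to be tested only on the naive arrays.

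**Figure D1:**
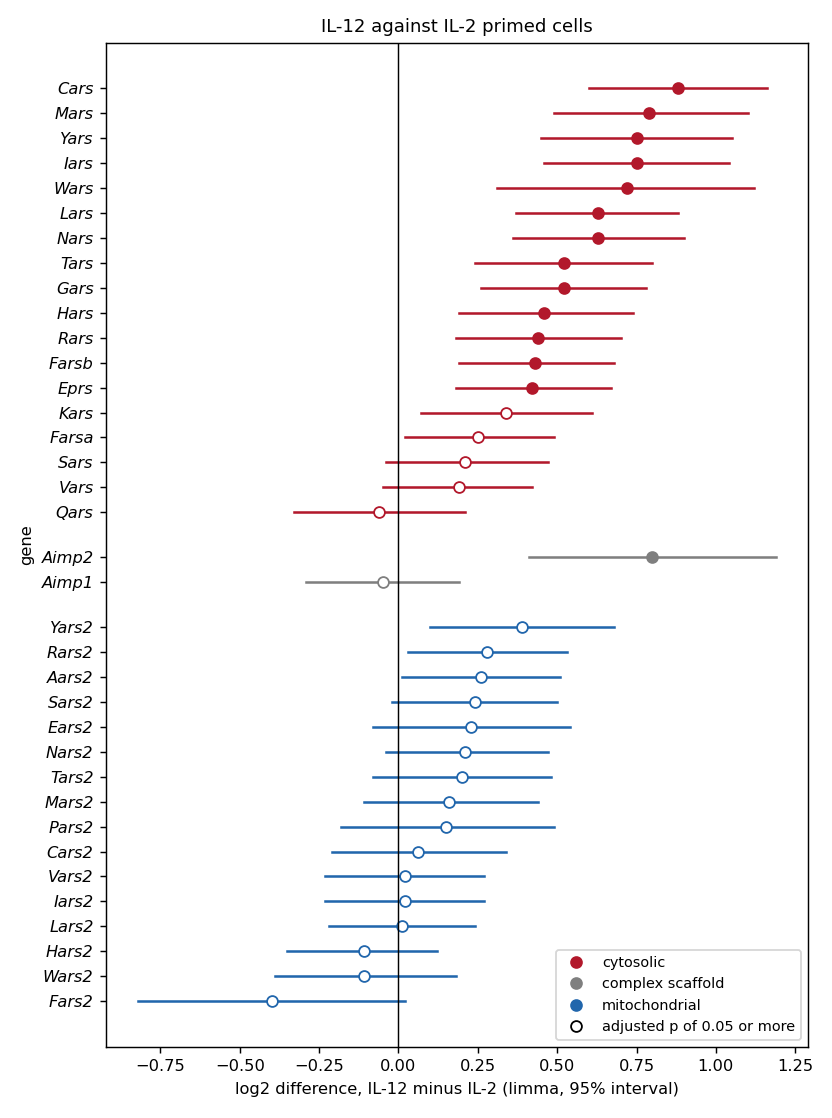
The log2 difference between IL-12 and IL-2 primed cells is plotted for each of the 36 measured genes, with 95% intervals of the limma fit and filled points where the adjusted p was under 0.05. The 13 filled cytosolic points lie between 0.42 and 0.88, whereas the open mitochondrial points run from -0.40 to 0.39.

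Cars (probe set 10569458), the cysteinyl-tRNA synthetase, differed most among the cytosolic genes. It read 9.54 and 9.39 on the IL-12 arrays, against 8.66 and 8.51 on the IL-2 arrays. Every IL-12 value was above every IL-2 value, a log2 difference of 0.88 ± 0.12 (SE from 2 arrays in either group, limma adjusted p = 0.00173), which is 1.84-fold. Mars, the methionyl enzyme that also charges the initiator tRNA, read 10.40 and 10.23 in IL-12 cells, against 9.64 and 9.40 in IL-2 cells. The groups were apart by 0.79 ± 0.13 (limma adjusted p = 0.00412). Yars, the tyrosyl enzyme, read 10.62 and 10.49 in IL-12 cells, against 9.84 and 9.77 in IL-2 cells. Iars, the isoleucyl enzyme, read 11.06 and 11.33 in IL-12 cells, against 10.50 and 10.39 in IL-2 cells. Both rose by 0.75 on the log2 scale (limma adjusted p = 0.00523 for Yars and 0.00491 for Iars), with no overlap between the groups. Iars is the one member with a further probe set, 10405094, which read 10.62 and 10.61 in IL-12 cells and lower on both IL-2 arrays, so the order was the same on both probe sets.

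Wars, the tryptophanyl enzyme, which interferon gamma is known to induce in human cells, read 10.45 and 10.34 in IL-12 cells and 9.71 and 9.65 in IL-2 cells (0.72 ± 0.18, limma adjusted p = 0.0227). Lars, for leucine, and Nars, for asparagine, each rose by 0.63, and Gars, for glycine, and Tars, for threonine, each by 0.52. Gars read 11.73 and 11.70 in IL-12 cells, against 11.20 and 11.19 in IL-2 cells. The smaller rises were those of Hars for histidine (0.46), Rars for arginine (0.44), Farsb, a subunit of the phenylalanyl enzyme (0.43), and Eprs, the joint glutamyl and prolyl enzyme (0.42). These 4 had limma adjusted p from 0.0234 to 0.0281.

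The remaining 5 cytosolic genes were not called. Qars, the glutaminyl enzyme, read 11.40 and 11.34 in IL-12 cells, against 11.42 and 11.43 in IL-2 cells. It was the one cytosolic gene whose difference lay below 0, at -0.06 with a 95% interval from -0.33 to 0.21. Kars (lysine) differed by 0.34, Farsa (the other phenylalanyl subunit) by 0.25, Sars (serine) by 0.21 and Vars (valine) by 0.19. Limma adjusted p for these 4 ran from 0.0721 for Kars to 0.231 for Vars. The upper ends of their intervals, between 0.42 and 0.61, leave room for changes as large as those called.

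The scaffold genes parted from each other. Aimp2, a core scaffold of the complex, read 9.85 and 9.82 in IL-12 cells, against 8.99 and 9.07 in IL-2 cells, and rose by 0.80 ± 0.17 (limma adjusted p = 0.0127). Aimp1, which binds Rars in the complex, read 8.97 and 9.02 in IL-12 cells, against 9.09 and 9.01 in IL-2 cells, and the groups overlapped (-0.05 ± 0.11, limma adjusted p = 0.769). Among the 7 measured synthetases of the complex 5 rose, with a median difference of 0.44, and among the 11 free cytosolic synthetases 8 rose, with a median of 0.52. Genes that rose and genes that were not called were thus found both inside and outside the complex. By catalytic fold, 7 of 9 class I genes (median 0.72) and 5 of 8 class II genes (median 0.45) rose. Eprs, which holds both folds, was counted in neither. Over all tested genes 9.82% were called higher in this comparison, and these subsets were not tested against each other.

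The cytosolic calls rested on 2 arrays a group, and the count fell when 1 of these 4 arrays was left out. It was 7 without IL-2 replicate 1, 1 without IL-2 replicate 2, 6 without IL-12 replicate 1 and 4 without IL-12 replicate 2, with Cars called each time and the median between 0.43 and 0.52. In these fits the group left with 1 array has no spread of its own and is assumed to vary like the others. Calls over all tested genes fell in each of these fits too. Leaving out a naive array gave 14, with Kars added. The call of Aimp2 was lost without any one IL-12 or IL-2 array (limma adjusted p = 0.063 to 0.0865).

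Among the mitochondrial genes the highest difference was that of Yars2, the tyrosyl enzyme, which read 9.27 and 9.39 in IL-12 cells, against 9.08 and 8.80 in IL-2 cells (0.39 ± 0.13, limma adjusted p = 0.0581). Its arrays did not overlap, and it was called without either naive array (0.0388 each). Fars2, the phenylalanyl enzyme, was the lowest, at 8.05 and 8.24 in IL-12 cells, against 8.44 and 8.66 in IL-2 cells (-0.40 ± 0.18, limma adjusted p = 0.157). It too was called without either naive array (0.0323 each). Rars2 (arginine) differed by 0.28, Aars2 (alanine) by 0.26, Sars2 (serine) by 0.24, Ears2 (glutamate) by 0.23, Nars2 (asparagine) by 0.21 and Tars2 (threonine) by 0.20, and none of them was called. The other 8, Mars2, Pars2, Cars2, Vars2, Iars2, Lars2, Hars2 and Wars2, lay between -0.11 and 0.16. Of the 95% intervals of the mitochondrial genes none reached above 0.68, the upper end for Yars2. Several, among them those of Ears2 (0.54) and Rars2 (0.53), reached above 0.42, the smallest called cytosolic rise.

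For 12 amino acids a cytosolic and a mitochondrial enzyme were both measured, and the ratio of the pair was followed on each array as a change from its naive mean, since levels of different probe sets cannot be compared. The ratio was higher in IL-12 cells than in IL-2 cells in 11 of 12 pairs. In each of the 11, both IL-12 arrays lay above both IL-2 arrays. Among single genes, 69.5% of those tested did not overlap in this comparison, and no such share was computed for ratios. The median difference over the 12 was 0.50 on the log2 scale. Cars over Cars2 stood 1.20 and 1.12 above its naive mean in IL-12 cells, against 0.40 and 0.30 in IL-2 cells. Wars over Wars2 stood 1.59 and 1.55 above it in IL-12 cells, against 0.90 and 0.59 in IL-2 cells. The exception was Sars over Sars2, which lay below its naive mean on every primed array, with changes of -0.48 and -0.74 in IL-12 cells and of -0.59 and -0.58 in IL-2 cells. A ratio shows unequal change of the partners, and no test was made on these ratios.

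**Figure D2:**
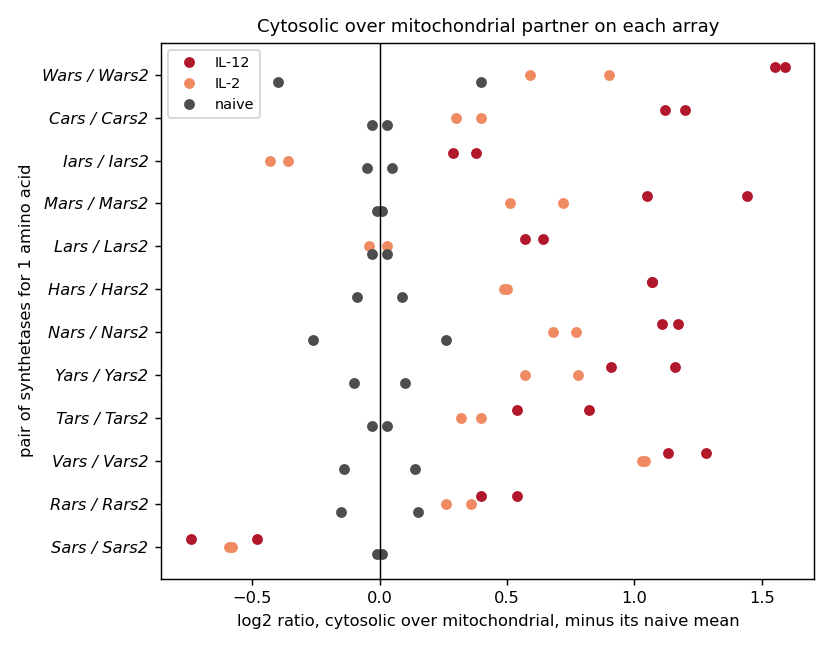
Each row is a cytosolic synthetase over the mitochondrial synthetase for the same amino acid, and the points give the log2 ratio on each of the 6 arrays minus the mean of the 2 naive arrays. IL-12 points lie to the right of IL-2 points in 11 of 12 rows, with Sars over Sars2 as the exception.

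Against naive cells, IL-12 primed cells had nearly the whole cytosolic set raised. Of 18 cytosolic genes 17 rose and none fell, with a median log2 difference of 0.79. Of all tested genes 57.9% were called, 31.2% as higher and 26.7% as lower with IL-12, and their median was 0.04. The arrays did not overlap for any of the 18 genes, as for 79.2% of all genes. Gars (probe set 10538420) rose most, reading 11.73 and 11.70 on the IL-12 arrays, against 10.13 and 10.38 on the naive arrays (1.46 ± 0.11, limma adjusted p = 9.83e-06). Yars read 10.62 and 10.49 in IL-12 cells, against 9.02 and 9.36 in naive cells, a rise of 1.36 ± 0.13. Cars followed with 1.24, Kars with 1.13 and Wars with 1.0. Wars read 9.09 and 9.70 on the naive arrays, a gap of 0.61 that was the widest within a group among the cytosolic genes. Farsa, at 9.51 and 9.53 in IL-12 cells and 9.36 and 9.49 in naive cells, was the one not called (0.09 ± 0.10, limma adjusted p = 0.468). Both scaffold genes rose, Aimp2 by 1.07 and Aimp1 by 0.70. The calls of Eprs and Farsb were lost without IL-12 replicate 2 (limma adjusted p = 0.0951 and 0.0646).

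IL-2 priming raised fewer of the cytosolic genes over naive cells. Of 18, 7 rose and none fell, and the median was 0.25, against 0.01 over all genes. Of all tested genes 45.7% were called, 25.8% as higher and 19.9% as lower with IL-2. For 10 of the 18 the IL-2 and naive arrays did not overlap, as for 73.9% of all genes. Gars again rose most, at 11.20 and 11.19 in IL-2 cells, against 10.13 and 10.38 in naive cells (0.94 ± 0.11, limma adjusted p = 0.000231). Kars rose by 0.79, Qars by 0.78, Vars by 0.76 and Yars by 0.61. Qars read 11.42 and 11.43 in IL-2 cells, against 10.50 and 10.79 in naive cells, and the IL-2 values lay beside those of IL-12 cells. Aimp1 showed the same order and rose by 0.75 ± 0.11, while Aimp2 differed by 0.27 ± 0.17 and was not called. Hars (0.42) and Cars (0.36) were called too, but Cars, with a limma adjusted p of 0.0397, was kept in only 7 of 15 alternatives and was lost with no filter (0.0539), with array weights (0.0621) and without any one array but naive replicate 1 (0.0561 to 0.237), and Hars was lost without naive replicate 1 or either IL-2 array (0.0582 to 0.15). Iars, Lars, Mars, Nars, Tars, Eprs and Farsb differed from naive cells by -0.04 to 0.16 in IL-2 cells and were not called. Rars at 0.22, Wars at 0.29 and Farsa at -0.16 were not called either. Sars missed the threshold narrowly (0.31 ± 0.11, limma adjusted p = 0.0502). The comparisons of IL-12 and of IL-2 cells with naive cells share the naive arrays and are not independent.

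**Figure D3:**
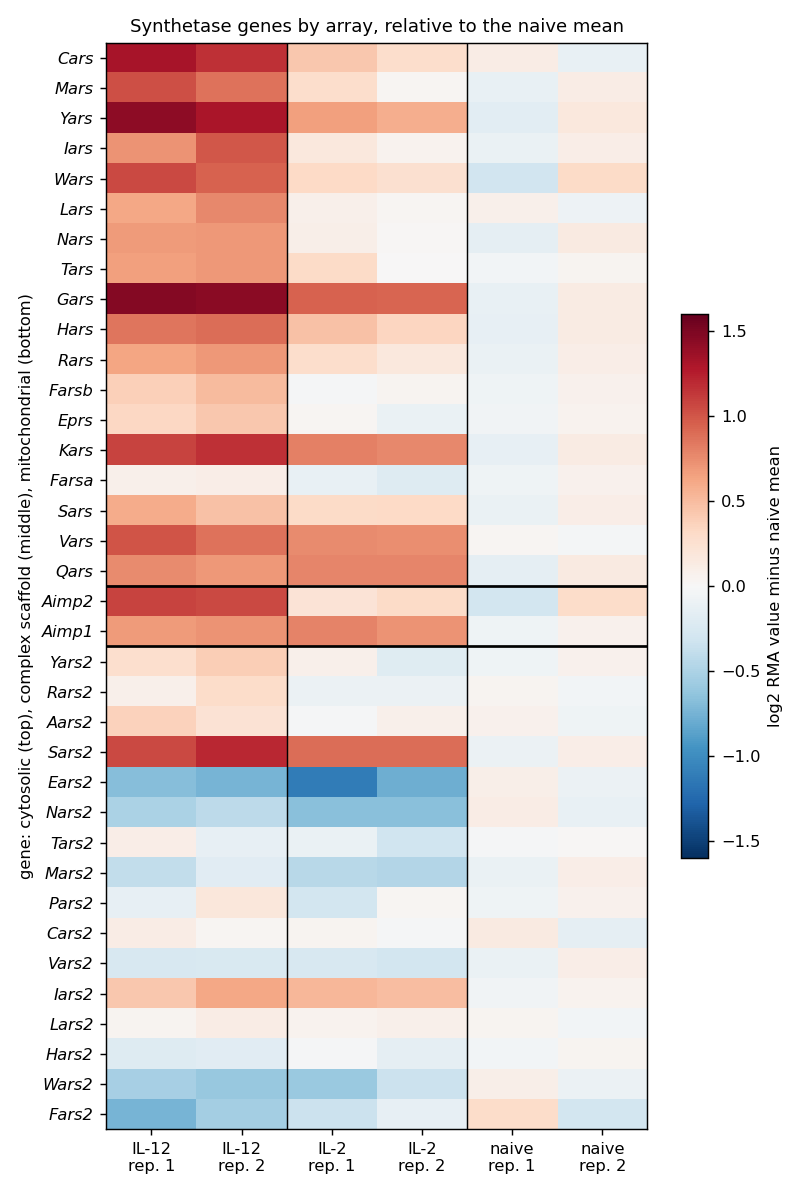
Colours give the log2 RMA value of each of the 36 measured genes on each array minus the mean of the 2 naive arrays, with cytosolic genes at the top, scaffold genes in the middle and mitochondrial genes at the bottom, each block sorted by the difference between IL-12 and IL-2 cells. The cytosolic block is darkest on the 2 IL-12 arrays, where its median stands at 0.74 and 0.81, and lighter on the 2 IL-2 arrays, at 0.30 and 0.21, while the mitochondrial block holds rows of either colour.

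Mitochondrial genes were called in both directions with priming. Against naive cells 3 of 16 rose and 4 fell in IL-12 cells (median 0.00), and 2 rose and 4 fell in IL-2 cells (median -0.11). Both counts are smaller shares than the 57.9% and 45.7% called over all genes. The arrays did not overlap for 12 of the 16 with IL-12 and for 10 with IL-2, where the shares over all genes were 79.2% and 73.9%. Sars2, the seryl enzyme, read 9.78 and 9.93 in IL-12 cells, 9.61 and 9.61 in IL-2 cells and 8.62 and 8.82 in naive cells. It rose by 1.14 ± 0.11 with IL-12 and by 0.89 ± 0.11 with IL-2 (limma adjusted p = 4.42e-05 and 0.000304). Its cytosolic partner Sars differed by 0.53 with IL-12 and by 0.31 with IL-2. Iars2, the isoleucyl enzyme, rose by 0.53 with IL-12 and by 0.51 with IL-2. Aars2 rose in IL-12 cells by 0.29 (limma adjusted p = 0.0464), a call kept in only 4 of 14 alternatives, among them neither no filter (0.0629) nor array weights (0.086).

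Ears2, the glutamyl enzyme of mitochondria, fell most. It read 7.09 and 7.02 in IL-12 cells, 6.65 and 6.99 in IL-2 cells and 7.86 and 7.67 in naive cells, and fell by 0.71 with IL-12 and by 0.94 with IL-2 (limma adjusted p = 0.00185 and 0.000617). Nars2 (asparagine) fell by 0.46 with IL-12 and by 0.67 with IL-2, and Wars2 (tryptophan) fell by 0.57 with IL-12 and by 0.46 with IL-2. Fars2 was called lower in IL-12 cells and Mars2 (methionine) in IL-2 cells. Their fitted differences were -0.64 and -0.24 for Fars2 and -0.30 and -0.46 for Mars2, each with IL-12 first, and the difference between the primed groups was called for neither. Of the rest, Yars2 (0.33) and Vars2 (-0.26) with IL-12 and Vars2 (-0.28) with IL-2 had limma adjusted p of 0.0508, 0.0719 and 0.068, and Cars2, Hars2, Lars2, Pars2, Rars2 and Tars2 lay between -0.21 and 0.19. Calls against naive cells were lost in IL-12 cells for Fars2 without naive replicate 1 (limma adjusted p = 0.0659) and for Fars2 and Nars2 without IL-12 replicate 1 (0.0892 and 0.0566). They were lost in IL-2 cells for Wars2 without naive replicate 1 (0.0571) and IL-2 replicate 1 (0.139), and for Mars2 without IL-2 replicate 1 (0.0677) or 2 (0.0814) and with median centring (0.0642).

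**Figure D4:**
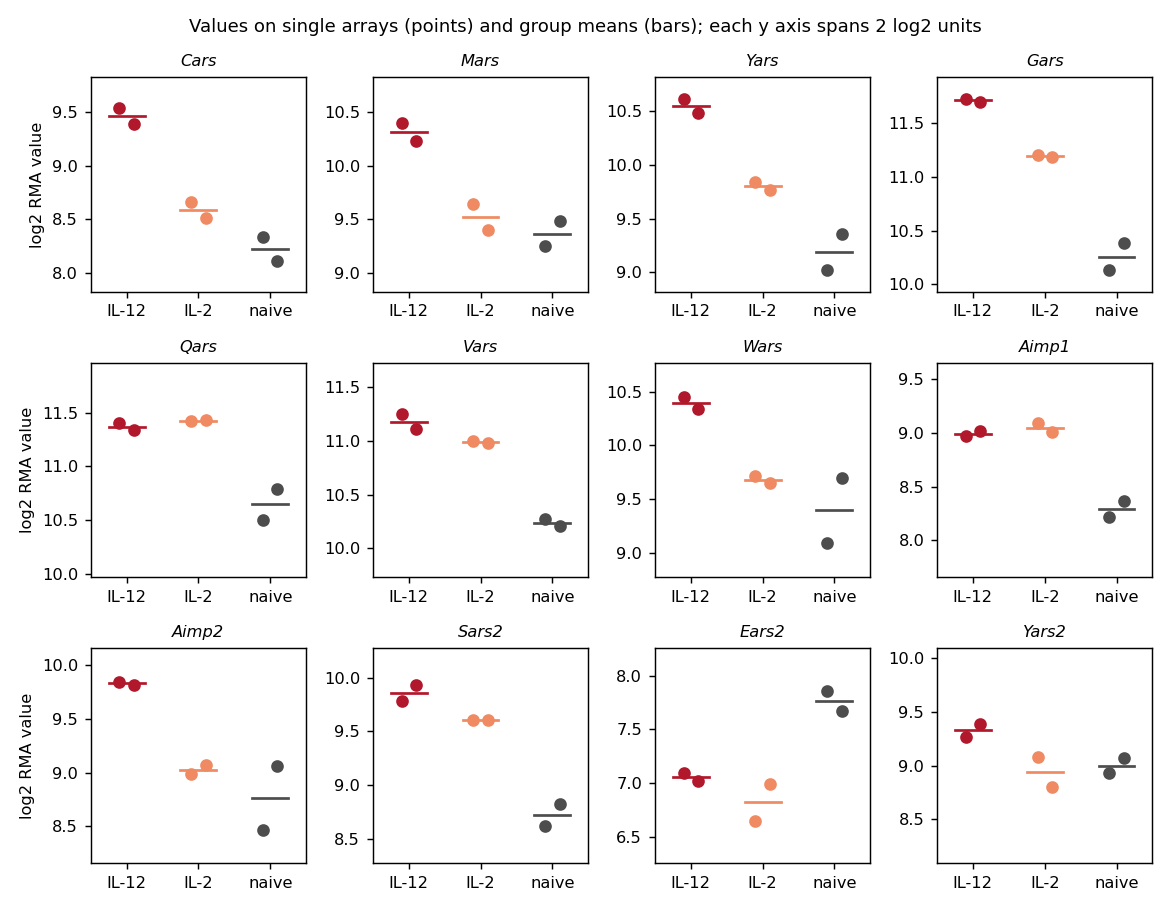
Points are the log2 RMA values on single arrays and bars are group means for 12 of the genes, each panel spanning 2 log2 units. Cars, Mars, Yars, Wars and Aimp2 stand apart in IL-12 cells, Qars, Vars and Aimp1 lie close together in both primed groups above naive cells, and Ears2 lies lower in both primed groups than in naive cells.

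Promoter windows were given by RefSeq for 27 of the 36 measured genes (GRCm38.p6, 300 bases around each gene start), 11 cytosolic, 2 scaffold and 14 mitochondrial. They were searched on both strands for the C/EBP-ATF response element, spelled TGATGNAA. It was found at Gars, Iars, Tars and Yars, so in 4 of 11 cytosolic, 0 of 2 scaffold and 0 of 14 mitochondrial genes, and in 3.97% of all 32851 windows. These 4 sequences are shown because they hold the match. For each motif, members were counted by gene, over all windows given for the gene, and the background by single window. These shares are therefore unlike measures. All 4 genes rose with IL-12 relative to IL-2, and the match lies within 30 bases of the gene start in each. Capitals mark the match, read 5′ to 3′ on the gene's strand, where TTTCATCA and TTGCATCA are the element on the opposite strand. Yars is shown over 30 bases only, since its start lies inside a longer RefSeq gene model.
Gars, chr6:55037901-55038020, plus strand: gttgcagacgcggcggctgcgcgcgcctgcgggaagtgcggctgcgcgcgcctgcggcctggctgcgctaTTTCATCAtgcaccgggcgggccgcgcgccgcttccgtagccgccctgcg
Iars, chr13:49682030-49682149, plus strand: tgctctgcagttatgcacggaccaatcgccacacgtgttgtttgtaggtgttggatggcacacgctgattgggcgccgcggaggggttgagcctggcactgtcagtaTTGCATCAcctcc
Tars, chr15:11399639-11399758, minus strand: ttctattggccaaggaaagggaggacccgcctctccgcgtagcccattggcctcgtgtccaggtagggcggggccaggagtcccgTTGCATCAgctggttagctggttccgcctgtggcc
Yars, chr4:129189887-129189916, plus strand: gcggagcgacgagctcagcTGATGCAAccc

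Counted from +1 at the gene start, the element spans -30 to -23 at Gars, -15 to -8 at Tars, 4 to 11 at Yars and 8 to 15 at Iars. The E-box CACGTG, bound by Myc and related factors, was found at 3 of 11 cytosolic genes (Farsb, Iars and Tars), at 1 of 14 mitochondrial genes (Ears2) and in 7.15% of all windows. The interferon gamma activated site TTCNNNGAA was in the windows of Kars and Nars2 and in 8.3% of all windows. No match overlapped another. The other cytosolic genes that rose and had a window, Eprs, Farsb and Mars, held no response element in these 300 bases. A match is a run of letters and no evidence of binding, and the windows of Cars, Hars, Lars, Nars, Rars, Vars, Wars, Hars2 and Pars2 were not used here.

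Of the amino acid and integrated stress response list, 28 genes that serve amino acid supply or the response to its lack, 23 were tested. With IL-12 relative to IL-2, 11 of these rose and 1 fell, with a median of 0.40, or 0.24 over all 26 measured. Over all tested genes 9.82% were called higher and 11% lower in this comparison, with a median of 0.02. Atf4 read 8.88 and 8.98 in IL-12 cells, against 8.58 and 8.29 in IL-2 cells and 8.06 and 8.08 in naive cells. The rise over IL-2 cells was 0.50 ± 0.12 (limma adjusted p = 0.0219), and leaving out IL-2 replicate 2 (0.2) or either IL-12 array (0.0683 and 0.142) ended the call. Eif2ak4, the sensor of uncharged tRNA, was not called (-0.19 ± 0.11, limma adjusted p = 0.272). Asns, the asparagine synthetase, which makes the amino acid that Nars loads, read 10.84 and 10.23 in IL-12 cells, against 9.91 and 9.23 in IL-2 cells and 6.29 and 6.35 in naive cells. It rose by 0.97 ± 0.24 over IL-2 cells (limma adjusted p = 0.0232). Leaving out IL-2 replicate 2 (0.17) or replicate 1 of IL-12 (0.133) ended that call. The neutral amino acid transporter gene Slc7a5 rose by 1.08 and the mitochondrial serine hydroxymethyltransferase gene Shmt2 by 0.96. Gpt2, the alanine transaminase gene, rose by 0.90. It passed the filter of 6.83 only through its IL-12 arrays (7.59 and 7.42), against 6.62 and 6.59 in IL-2 cells. Differences lay above 0 for 18 of the 23 tested genes, as for 5868 of all 11147 genes. Ddit3 (-0.49) and Sesn2 (-0.27), named after their values were seen, lay below 0 and were not called (limma adjusted p = 0.101 and 0.0983). Trib3, an ATF4 target that restrains the response, was the 1 gene called lower. It read 7.42 and 7.32 in IL-12 cells, against 8.06 and 8.13 in IL-2 cells and 7.38 and 7.06 in naive cells, and fell by 0.73 relative to IL-2 cells (limma adjusted p = 0.00494, or 0.0572 without IL-2 replicate 2). Against naive cells 15 of the 23 rose with IL-12 and 12 with IL-2, and none fell, where 31.2% and 25.8% of all genes were called higher.

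Among 14 tested genes that handle tRNA outside the synthetases, 2 rose with IL-12 relative to IL-2 and 1 fell, with a median of 0.22, a share of calls near the 20.8% of all genes. Eef1e1, the remaining scaffold of the synthetase complex, rose with Aimp2, reading 10.27 and 10.55 in IL-12 cells, against 9.70 and 9.77 in IL-2 cells (0.68 ± 0.15, limma adjusted p = 0.0152). Leaving out either IL-2 array (0.101 and 0.0868) or replicate 2 of IL-12 (0.116) ended the call. Xpot, the nuclear export receptor for tRNA, rose by 0.41 (limma adjusted p = 0.0447), a call lost under 7 of 15 alternatives, the replicate block among them (0.0514). Pstk, a kinase on the route to selenocysteyl-tRNA, fell by 0.48 (limma adjusted p = 0.0166), a call that ended without either IL-2 array (0.108 and 0.114) or replicate 1 of IL-12 (0.118). Yrdc, a tRNA modification enzyme, differed by 0.29 (limma adjusted p = 0.0834). Mitochondria make glutaminyl-tRNA from the product of Ears2 with an amidotransferase, and its subunit genes, named here after their values were seen, were not called alike. Against naive cells Qrsl1 rose by 0.60 with IL-12 and by 0.35 with IL-2. Gatc rose by 0.43 with IL-12 (limma adjusted p = 0.046). Gatb fell by 0.31 with IL-2 (limma adjusted p = 0.0499) and differed by 0.00 with IL-12. The calls of Gatc and Gatb lie near the threshold.

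The interferon gamma gene, Ifng, rose by 2.37 ± 0.23 over IL-2 cells with IL-12 (limma adjusted p = 0.00027). Of 8 tested genes responsive to interferon gamma, set beside Wars, 2 rose relative to IL-2 and none fell, with a median of 0.13, against 9.82% of all genes called higher. They were the GTPase gene Gbp3, by 1.69 ± 0.10, and the transcription factor gene Irf1, by 0.50 ± 0.15, which were called at limma adjusted p of 2.57e-05 and 0.0451. Irf1 was not called with the mean of its probe sets (0.22, limma adjusted p = 0.267), with no filter (0.0585), with quantile normalization (0.0665) or without any one IL-12 or IL-2 array. The immunoproteasome genes Psme2 and Psmb9 differed by 0.25 and 0.14 and were not called. With its difference of 0.72, Wars lay between Gbp3 and Irf1 and within the range of the other cytosolic synthetases. The call of Wars was likewise lost without any one IL-12 or IL-2 array, with differences from 0.66 to 0.77. A part of interferon gamma in the Wars difference was not tested.

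All 7 measured CD8 T cell markers were high on every array, with list means of 12.02 and 11.98 in IL-12 cells, 12.27 and 12.32 in IL-2 cells and 12.25 and 12.38 in naive cells. With IL-12 relative to IL-2, Cd8b1 (-0.44), Cd3d (-0.57) and Cd2 (-0.34) of these 7 fell and none rose, where 11% of all genes were called lower. The mean of 9 measured B cell markers was 7.40 and 7.46 in IL-12 cells, 6.53 and 6.53 in IL-2 cells and 8.91 and 8.76 in naive cells. Relative to IL-2 cells 7 of these 9 rose with IL-12 and none fell, where 9.82% of all genes were called higher. All 9 were lower in either primed group than in naive cells, where 26.7% (IL-12) and 19.9% (IL-2) of all genes were called lower. Blk, Cr2, Ebf1 and Fcer2a stayed under the filter of 6.83 on all primed arrays and were tested only through their high naive values. Blk and Ebf1 are among the 7 that rose. The mean of 8 myeloid and dendritic markers was 6.71 and 6.75 in IL-12 cells, 6.55 and 6.31 in IL-2 cells and 8.33 and 8.58 in naive cells. Of them, Itgam (0.95) and Mpeg1 (0.97) rose with IL-12 relative to IL-2, where 9.82% of all genes were called higher. Itgam passed the filter of 6.83 only through its IL-12 arrays (7.41 and 7.63), and Mpeg1 only through its naive arrays (9.12 and 9.03). Itgam was also 1.20 higher in IL-12 than in naive cells, whereas the list mean was lower. No marker has a value of 0 on these arrays, and the erythroid marker Alas2 and the natural killer markers Klrb1c and Ncr1 were too dim to be tested. The part of other cells in the synthetase differences was not tested, and in bulk RNA fewer cells of a type and less RNA per cell cannot be told apart.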

How the data were processed

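The values analysed were log2 intensities deposited by the authors, 35556 probe sets by 6 arrays. RMA is named in the submitters' processing notes. It equalises the arrays, so that a shift common to most genes would be lost. Its settings and a genome build are not given in the sources used here. There were 0 value columns without a sample. Of the probe sets 21789 carried 1 gene symbol in the platform annotation, 1621 several (left out) and 12146 none. Gene identifiers of 21698 were found in the RefSeq table of GRCm38.p6, used for names. Testing took in the 11147 genes that exceeded 6.83, the 50th percentile of the table, on 2 or more of the 6 arrays. The fit used limma 3.58.1 in R 4.3.3 with 1 mean per group, 3 residual and 5.62 prior degrees of freedom, and two-sided tests. The 2 arrays of a group correlated across genes at 0.986 (naive) to 0.994 (IL-2). Their number limits the precision.

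The members and lists were chosen with earlier results of these data known. All members were named, and from each further list the 4 genes with the smallest p between IL-12 and IL-2 cells, besides Eef1e1, Atf4, Eif2ak4, Asns, Irf1 and Ifng. Alternatives were other filters, the mean of probe sets, quantile normalization, median centring, other variance models and weights, the compared groups alone, a replicate block and leaving out each array. For the genes outside the synthetases these were run between IL-12 and IL-2 cells only and were added after their values were seen.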

Additional observations from a re-analysis of the deposited data

How the results depend on the processing

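With all arrays kept, the 13 cytosolic calls between IL-12 and IL-2 cells were kept in every setting tried, and no called member turned its direction in any comparison or setting. The replicate block changed few calls (2414 genes called between IL-12 and IL-2 cells against 2321, and among members the call of Aars2 against naive cells lost with a limma adjusted p of 0.0562, and the call of Xpot at 0.0514), and same-numbered arrays deviated together only weakly, with correlations from -0.02 to 0.15, so the numbers were not taken as pairs. Mitochondrial calls between IL-12 and IL-2 cells were 1 with quantile normalization (median 0.21), 3 with array weights and 2 with the compared groups alone. At the 75th percentile filter, where 6 mitochondrial genes remained, 3 (IL-12) and 2 (IL-2) were called against naive cells, with medians of 0.20 and -0.03. Median centring moved the median of all genes by 0.12 for IL-12 and 0.10 for IL-2 against naive cells, the cytosolic medians to 0.91 and 0.35 and the mitochondrial ones to 0.12 and -0.01. It gave 4051 higher and 2279 lower genes for IL-12 (3482 and 2972 without it) and 3282 and 1562 for IL-2 (2873 and 2222 without it).

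With 1 array left out, cytosolic calls ranged from 1 to 14 for IL-12 against IL-2, 15 to 17 for IL-12 against naive and 5 to 9 for IL-2 against naive cells, with medians of 0.43 to 0.52, 0.72 to 0.89 and 0.13 to 0.30. Mitochondrial calls ranged from 0 to 2, 4 to 8 and 4 to 7 in the same order, with medians of 0.08 to 0.16, -0.05 to 0.00 and -0.13 to -0.10. Calls over all genes for IL-12 against IL-2 numbered 737 to 3533 then, 3839 with array weights and 3533 with the compared groups alone, and 3341 between IL-2 and naive cells without IL-2 replicate 1 (5095 with all arrays). Fewer samples in a fit leave fewer degrees of freedom, but the compared groups alone gave more calls (3533) than all arrays together (2321). The cause of these changes was not tested.

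The sign turned only for members that were not called, 37 times over 23 gene comparisons, by values of at most 0.13 in size. With all arrays kept these were, against naive cells, Tars2 in IL-12 cells (0.10) and, in IL-2 cells, Eprs (0.06), Hars2 (0.02), Rars2 (0.01) and Yars2 (0.04) with median centring, Farsb (-0.04), Nars (-0.01) and Cars2 (-0.04) with quantile normalization, and Iars (-0.01) with the mean of its probe sets. With 1 array left out, the log2 differences between IL-12 and IL-2 cells ran from -0.07 to 0.11 for Iars2, -0.03 to 0.05 for Lars2, 0.00 to 0.31 for Pars2, 0.00 to 0.04 for Vars2 and -0.23 to 0.02 for Wars2. Between IL-12 and naive cells they ran from -0.07 to 0.22 for Cars2, -0.13 to 0.18 for Pars2 and -0.14 to 0.11 for Tars2. Between IL-2 and naive cells they ran from -0.11 to 0.03 for Eprs, -0.06 to 0.08 for Farsb, -0.02 to 0.15 for Lars, -0.09 to 0.20 for Nars, 0.00 to 0.30 for Tars, -0.02 to 0.59 for Wars, -0.03 to 0.56 for Aimp2, -0.03 to 0.10 for Aars2, -0.13 to 0.16 for Cars2, -0.53 to 0.05 for Fars2, -0.29 to 0.03 for Pars2 and -0.20 to 0.08 for Yars2.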

Other observations

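The naive arrays were the less even ones for the cytosolic synthetases. The median gap between the 2 arrays of a group over the 18 genes was 0.10 in IL-12 cells, 0.08 in IL-2 cells and 0.22 in naive cells, and 15 of the 18 genes read higher on naive replicate 2. The median of the 11147 tested genes was 8.69 on naive replicate 1 and 8.78 on naive replicate 2. Wars and Aimp2 showed the gap most, with Aimp2 at 8.47 and 9.06 on the naive arrays, and without naive replicate 2 both were called in IL-2 against naive cells (limma adjusted p = 0.00302 for Wars and 0.00337 for Aimp2, in a fit where the lone naive array is assumed to vary like the other groups).

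The ratio of cytosolic to mitochondrial partner was higher with IL-12 than in naive cells in 11 of 12 pairs, the exception being Sars over Sars2 (-0.61). With IL-2 it was higher than in naive cells in 9 of 12 pairs, with Sars over Sars2 at -0.58 and Iars over Iars2 and Lars over Lars2 at -0.39 and -0.01. These descriptions share the naive arrays and carry no test.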
